A study of Mus musculus with 40 samples.

Results

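The transcripts of 38 genes of homologous recombination (HR) and the Fanconi anaemia (FA) pathway were followed through mouse embryonic stem cells (mESCs) that lack cyclin C or CDK8, with and without an inhibitor of the ATR kinase. The 38 genes were chosen by name for their roles in repair, and all were found among the 55536 gene identifiers of the count tables. Polyadenylated RNA was sequenced from 2 biological replicates of WT mESCs, from the *Ccnc* KO mESC clones D1, G2 and H5, and from the *Cdk8* KO mESC clones B9, H4 and C8. Each culture was split between DMSO and 900 nM AZD6738 (ATRi), which blocks the checkpoint kinase ATR, for 4 h. The WT libraries were sequenced once in a multiplex with the *Ccnc* KO libraries and again in a multiplex with the *Cdk8* KO libraries. The knockouts were made by CRISPR editing, and each knockout replicate is 1 clone, so differences between clones are part of the replicate error.

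HR repairs double-strand breaks and broken replication forks by copying an intact sister chromatid. Nucleases first cut back a strand at the break, BRCA1, PALB2 and BRCA2 then help a protein filament form on the single strand, which invades the sister, and nucleases and helicases resolve the joint molecules. The FA pathway removes crosslinks between DNA strands: a core ubiquitin ligase marks the FANCI-FANCD2 clamp, which brings in nucleases, and repair ends with HR. 53BP1 and its effector RIF1 hold resection back and favour end joining, and ATM and MDC1 signal the break. Cyclin C is the partner of CDK8 in the kinase module of Mediator, the complex that links transcription factors to RNA polymerase II. Embryonic stem cells spend much of their cycle in S phase and rely on HR.

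All 38 genes were expressed in every library, with between 73 and 26957 reads per gene and library. The depth was 30899823 to 67274049 reads per library, summed over lanes. Levels between genes were compared per exon length, as CPM (read counts scaled to a common library size) per kb of exon, in WT under DMSO (*Ccnc* multiplex, mean ± SD, n = 2). On this scale *Eme1*, whose product is the partner of the MUS81 nuclease, was the highest at 51.2 ± 2.49, at the 93.1th percentile of the genes tested. *Rif1* followed at 35.0 ± 2.78 and *Brca1* at 22.8 ± 0.365. *Mre11a* at 20.4 ± 0.282 and *Fancl*, the ubiquitin ligase subunit of the FA core, at 20.3 ± 1.67 did not differ beyond their spread. At the other end stood *Brip1* at 3.49 ± 0.184, *Rbbp8* at 2.59 ± 0.189, *Fancc* at 2.31 ± 0.183 and *Rad51b* at 0.821 ± 0.0788. *Rad51b* thus lay at the 33.5th percentile, below every other gene of the set, and its 73 to 213 reads per library give it wide confidence intervals. *Rad54b* is uncertain, since 35.8% of its exon bases overlap *Fsbp* on the same strand.

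**Figure D1:**
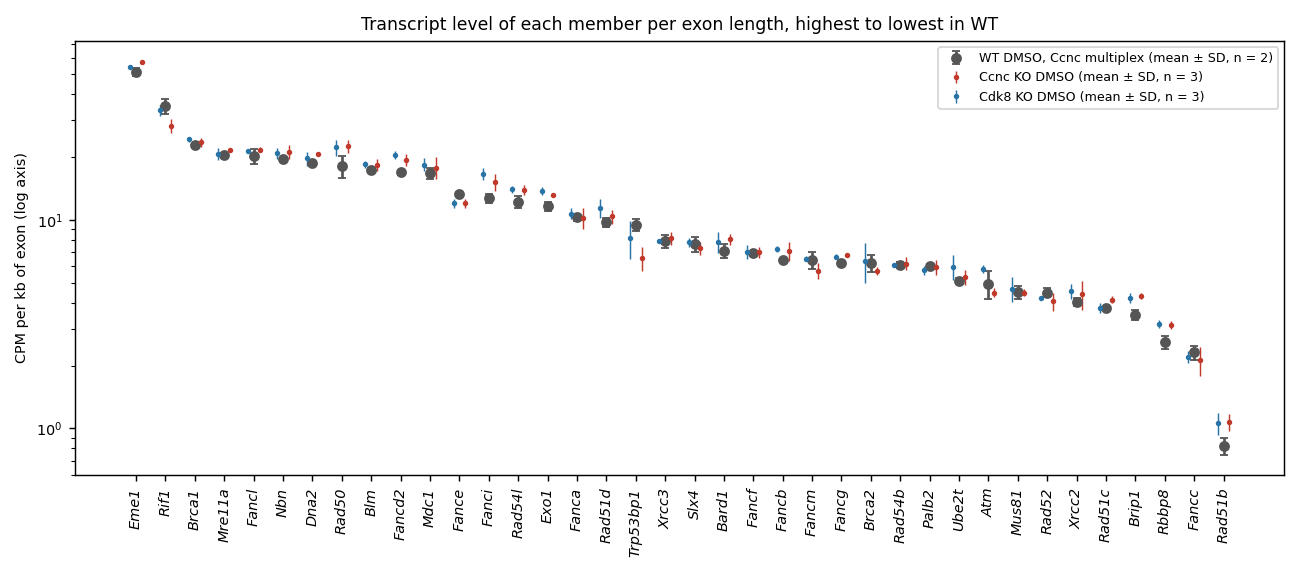
Level of each of the 38 genes in CPM per kb of exon (log axis), ordered by WT under DMSO in the *Ccnc* multiplex (grey, mean ± SD, n = 2), beside the *Ccnc* KO clones (red) and *Cdk8* KO clones (blue) under DMSO (mean ± SD, n = 3). The order runs from *Eme1* at 51.2 to *Rad51b* at 0.821, and knockout and WT means lie close together for nearly every gene.

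The targeted genes were checked in every library first. *Ccnc* stood at 43.6 to 43.7 CPM in WT under DMSO and at 4.94 to 7.4 CPM in the *Ccnc* KO clones (log2 fold change -2.82, edgeR quasi-likelihood test, adjusted p = 3.97e-06). *Cdk8* stood at 71.2 to 78.6 CPM in WT and 57.3 to 64.6 CPM in the *Cdk8* KO clones under DMSO (log2 fold change -0.33, adjusted p = 0.141), so most of its transcript was still present. Summed pluripotency markers (12 genes) lay at 5420 to 5940 CPM in WT, 4890 to 5350 CPM in *Ccnc* KO and 4200 to 5100 CPM in *Cdk8* KO clones under DMSO. The same DMSO libraries held 527 to 602, 575 to 736 and 906 to 1070 CPM of 12 primitive endoderm markers. Their part in the results below was not tested, and in bulk RNA fewer cells of a type and less RNA per cell cannot be told apart.

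Promoters were read for what the set shares in sequence, in windows of 250 bases before to 50 after the start site (RefSeq, GRCm38.p6), which were found for 29 of the 38 genes. An E2F-type motif, the element through which S phase genes are timed (TTTCCCGC, TTTGGCGC, TTTCGCGC or TTTGCCGC on either strand), was present in 5 of the 29 (17.2%), in 2.6% of 27025 genes and in 13 of 31 replication genes of the G1/S transition (41.9%). The windows that hold it are shown 5′ to 3′ on the strand of the gene, with the motif in capitals.
*Bard1*, chr1:71103163-71103192, minus strand: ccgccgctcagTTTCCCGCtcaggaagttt
*Fancg*, chr4:43010335-43010364, minus strand: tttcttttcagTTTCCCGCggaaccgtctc
*Brca2*, chr5:150522442-150522471, plus strand: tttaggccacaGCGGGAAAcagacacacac
*Rad51c*, chr11:87404941-87404970, minus strand: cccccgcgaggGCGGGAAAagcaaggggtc
*Mdc1*, chr17:35841471-35841500, plus strand: tcttcagcctgTTTCCCGCcggtagccgca
All 5 carry the same letters, forwards in *Bard1*, *Fancg* and *Mdc1* and as the reverse complement in *Brca2* and *Rad51c*.

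A CCAAT box, the site of the factor NF-Y, was present on either strand in 18 of the 29 windows (62.1%) and in 41.1% of all genes. The 110 bases before the start are shown for 3 of the genes that the results below turn on, with CCAAT or its reverse complement in capitals.
*Brip1*, chr11:86201194-86201303, minus strand: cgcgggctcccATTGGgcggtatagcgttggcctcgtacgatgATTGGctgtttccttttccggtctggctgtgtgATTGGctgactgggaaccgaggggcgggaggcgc
*Trp53bp1*, chr2:121271408-121271517, minus strand: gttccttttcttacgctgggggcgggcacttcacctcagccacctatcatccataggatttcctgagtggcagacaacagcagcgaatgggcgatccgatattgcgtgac
*Rad51b*, chr12:79297172-79297281, plus strand: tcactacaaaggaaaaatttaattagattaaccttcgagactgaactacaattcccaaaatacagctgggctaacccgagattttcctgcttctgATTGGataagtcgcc
*Brip1* has 3 in this stretch, *Rad51b* has 1 and *Trp53bp1* has none. The same stretch of *Rad52*, not shown, has none either. Genes without a window include *Rad50*, *Rif1*, *Fancd2*, *Exo1* and *Rbbp8*. A match describes these letters and is not evidence of binding.

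The first question was whether loss of cyclin C shifted the repair genes in unperturbed cells. Of 18577 genes tested, 1026 (5.52%) passed an adjusted p of 0.05 in *Ccnc* KO clones against WT under DMSO. Of the 38 repair genes 2 passed, a share of 5.26%, close to the background. *Trp53bp1* fell and *Rad50* rose. A further rule of fold change above 2 or below 0.5 left 239 genes (1.29%) and none of the 38.

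*Trp53bp1* (chr2:121193281-121271407, minus strand, GRCm38) encodes 53BP1, the chromatin-bound protein that shields broken ends from resection. It stood at 127 and 141 CPM in the WT replicates under DMSO, and at 94.1, 80.1 and 104 CPM in *Ccnc* KO clones D1, G2 and H5. Every knockout clone was below both WT replicates. The fall was 0.696-fold (log2 fold change -0.52 ± 0.097 SE, n = 3 against 2, edgeR quasi-likelihood test, adjusted p = 0.00846). Without WT replicate 2 the adjusted p was 0.105, and without any other 1 replicate or clone it was 0.0019 to 0.0385 (edgeR). Its effector *Rif1*, at 347 and 388 CPM in WT, stood at 300, 273 and 317 CPM in the clones, again with no overlap. Its log2 fold change of -0.30 ± 0.0878 SE did not pass (edgeR, adjusted p = 0.0679).

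*Rad50* (chr11:53649519-53707319, minus strand) encodes the ATPase of the MRE11-RAD50-NBN complex, which senses and tethers broken ends. Its level was 131, 113 and 119 CPM in clones D1, G2 and H5 against 88.7 and 105 CPM in WT under DMSO. All 3 clones lay above WT, although the WT replicates were nearly as far apart as clones D1 and G2. The rise was 1.25-fold (log2 fold change 0.33 ± 0.0855 SE, edgeR quasi-likelihood test, adjusted p = 0.0416). The call was lost when any 1 clone or either WT replicate was left out (edgeR, adjusted p = 0.0551 to 0.35, log2 fold change 0.20 without WT replicate 1 and 0.44 without WT replicate 2), and when WT replicate 2 under ATRi was taken in.

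The next in order of p was *Brip1*, the helicase that binds the BRCT repeats of BRCA1. It was measured at 25.0 and 27.0 CPM in WT and at 33.3, 31.7 and 31.2 CPM in the *Ccnc* KO clones. Clones and WT did not overlap, and the log2 difference was 0.31 ± 0.0873 SE (edgeR, adjusted p = 0.0537). With libraries of both treatments in 1 model and the clone as a random block (limma voom), 1885 genes (10.1%) and 6 of the 38 passed. These were *Trp53bp1* and *Rif1*, lower, and *Rad50*, *Brip1*, *Fanci* and *Fancd2*, higher.

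By role, the groups differed in where their members lay. Of the 9 genes of the FA core and its ubiquitin-conjugating enzyme UBE2T, 6 were above WT in the *Ccnc* KO clones, with a median log2 difference of 0.02 and none called. The clamp genes *Fanci* and *Fancd2*, the substrates of that core, lay at 0.27 and 0.20 and were not called. The 7 resection and dissolution genes, whose products act where ends are cut back or joint molecules dissolved, were all above WT, with a median of 0.15 and *Rad50* called. The 5 strand exchange cofactors *Rad51b*, *Rad51c*, *Rad51d*, *Xrcc2* and *Xrcc3* were also all above WT (median 0.13), from 0.06 for *Xrcc3* to 0.39 for *Rad51b*, and none was called. The 5 BRCA genes and partners had a median of 0.06 and the 3 genes of RAD52 and RAD54 proteins one of 0.03. The nuclease genes *Mus81*, *Eme1* and *Slx4* lay at 0.00, 0.17 and -0.05. Break signalling and the 53BP1 axis had a negative median, -0.21 over *Atm*, *Mdc1*, *Trp53bp1* and *Rif1*.

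Values of 2 FA core genes and of *Brca1* follow. In the *Ccnc* multiplex *Fance* stood at 43.3 and 41.7 CPM in WT and at 36.0, 39.3 and 39.4 CPM in the *Ccnc* KO clones, all below WT (log2 difference -0.14, edgeR, adjusted p = 0.397). *Fanca*, a core subunit, spread from 79.8 to 100 CPM over the clones around 87.6 and 92.4 CPM in WT, and overlapped it. Among the BRCA genes *Brca1* itself was at 192 and 196 CPM in WT and 205, 190 and 209 CPM in the clones, with a log2 difference of 0.06 and a 95% confidence interval from -0.09 to 0.21.

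The genes *Rad54l*, *Dna2* and *Eme1* lay above WT without passing. *Rad54l*, a translocase of strand exchange, was at 98.8 and 89.6 CPM in WT and 100, 110 and 111 CPM in the *Ccnc* KO clones (log2 difference 0.20, edgeR, adjusted p = 0.171). *Dna2*, a nuclease of long-range resection, was at 110 and 111 CPM in WT and 124, 118 and 123 CPM in the clones (edgeR, adjusted p = 0.229). *Eme1* was at 137 and 146 CPM in WT and 161, 155 and 158 CPM in the clones (log2 difference 0.17, edgeR, adjusted p = 0.181). In none of these did clones and WT overlap.

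Over the 38 genes, 28 were higher in *Ccnc* KO than in WT, and the median log2 difference was 0.10 beside 0.01 over all genes tested. With libraries of both treatments in 1 model the median was 0.055, and 0.056 with the random block. An unadjusted p under 0.05 was reached by 12 of them (31.6%) and by 20.5% of all genes. In 15 (39.5%) every clone under DMSO lay above both WT replicates, beside 17.6% of all genes. The 15 included *Bard1*, the obligate partner of BRCA1, the strand exchange cofactor genes *Rad51b* and *Rad51c*, and the translocase gene *Rad54l*. Every clone lay below WT in 3, *Fance*, *Trp53bp1* and *Rif1*, beside 19.0% of all genes. The log2 differences of the 38 ran from -0.52 for *Trp53bp1* to 0.39 for *Rad51b*.

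**Figure D2:**
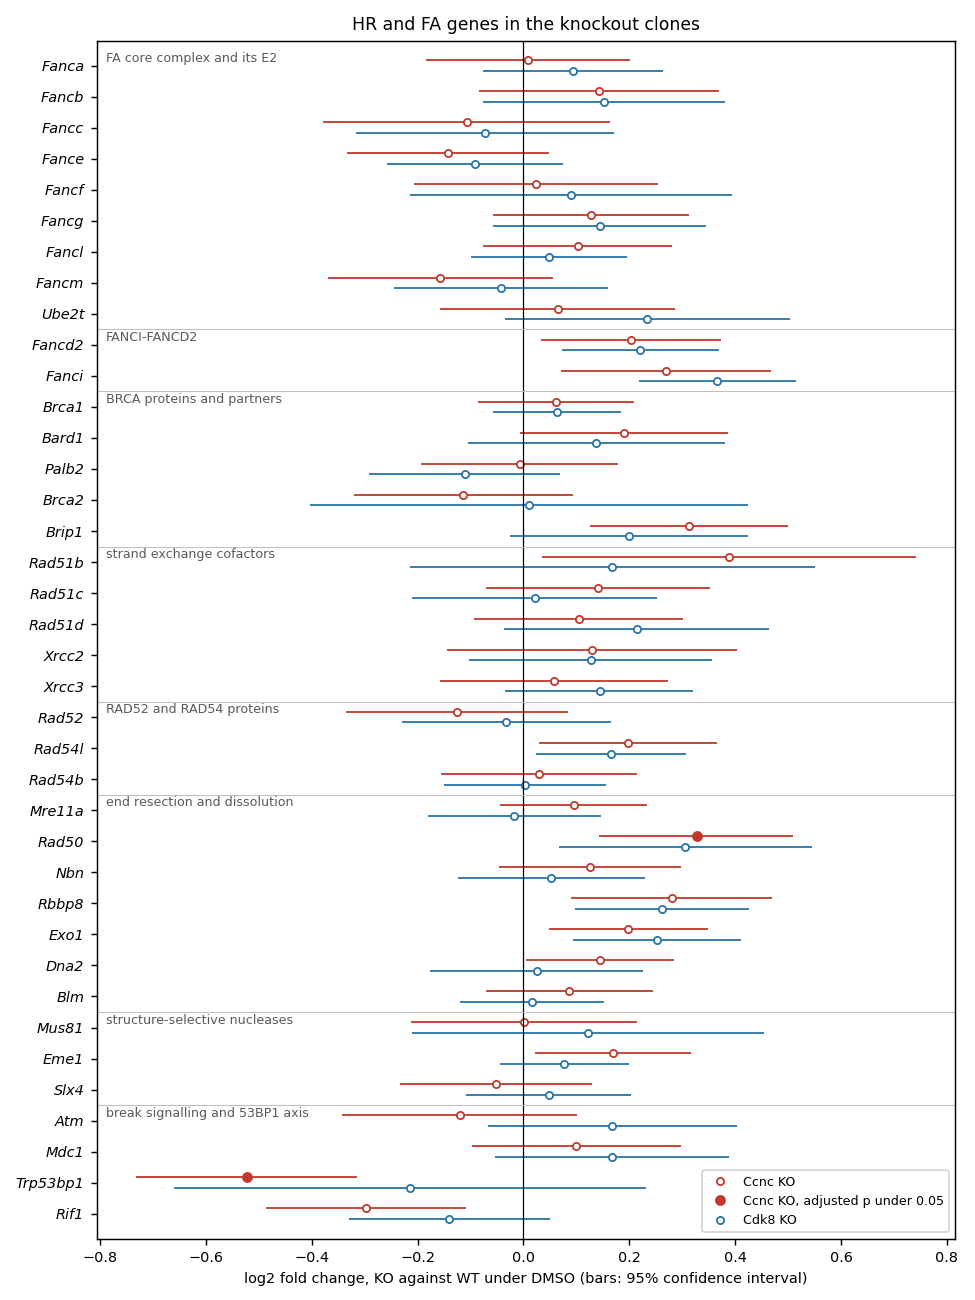
Log2 fold change of each of the 38 genes in *Ccnc* KO (red) and *Cdk8* KO (blue) clones against WT under DMSO, with 95% confidence intervals; filled points passed an adjusted p of 0.05. Filled points are *Trp53bp1* at -0.52 and *Rad50* at 0.33, both in *Ccnc* KO, and most other points lie to the right of 0 with intervals that include it.

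The same question was asked of CDK8 loss. Only 21 of 18721 genes (0.112%) passed in *Cdk8* KO clones against WT under DMSO, and none of the 38 did (DESeq2: 1). Of the 21, 12 also passed the fold change rule (0.0641%), and none of the 38. An unadjusted p under 0.05 was reached by 6 of the 38 (15.8%) and by 13.0% of all genes. These were *Fanci*, *Fancd2*, *Rbbp8*, *Exo1*, *Rad50* and *Rad54l*, all above WT. The comparison shares the WT libraries with that of the *Ccnc* KO clones, so both stand side by side below and their likeness is not a result.

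The smallest p belonged to *Fanci*, which was at 73.8 and 74.8 CPM in WT (*Cdk8* multiplex) and at 95.9, 102 and 89.6 CPM in clones B9, H4 and C8. All clones were above WT, by a log2 difference of 0.37 ± 0.0654 SE (edgeR quasi-likelihood test, adjusted p = 0.0666). In the *Ccnc* multiplex *Fanci* was at 70.5 and 75.9 CPM in WT and 79.5, 86.8 and 96.4 CPM in the clones. With the clone as a random block beside treatment (limma voom), 237 genes (1.27%) passed in *Cdk8* KO, *Fanci* among them and no other of the 38.

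*Fancd2*, which encodes the other protein of the clamp, stood at 137 and 142 CPM in WT and 171, 160 and 156 CPM in the *Cdk8* KO clones. In the *Ccnc* multiplex it stood at 132 and 137 CPM in WT and 150, 145 and 166 CPM in the clones. In neither did clones and WT overlap, and the log2 differences were 0.22 ± 0.0655 SE in *Cdk8* KO (edgeR, adjusted p = 0.216) and 0.20 ± 0.0792 SE in *Ccnc* KO (adjusted p = 0.162).

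*Rbbp8* encodes CtIP, which starts resection together with MRE11. Its WT level was 34 and 32.2 CPM in the *Cdk8* multiplex, against 41.6, 39.6 and 37.8 CPM in the clones, and 34.1 and 30.8 CPM in the *Ccnc* multiplex, against 39.4, 37.3 and 40.7 CPM. The clones were above WT in both, by log2 differences of 0.26 ± 0.0725 SE (edgeR, adjusted p = 0.182) and 0.28 ± 0.0883 SE (adjusted p = 0.0875). *Exo1*, the exonuclease of long-range resection, stood at 101 and 94.2 CPM in WT and 116, 112 and 122 CPM in the *Cdk8* KO clones, a log2 difference of 0.25 ± 0.07 SE (edgeR, adjusted p = 0.182). In the *Ccnc* KO clones *Exo1* was at 109, 111 and 114 CPM against 101 and 94.3 CPM in WT. For both genes the clones were above WT without overlap, by differences that did not pass the test over all genes.

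*Rad50* stood at 129, 109 and 121 CPM in *Cdk8* KO clones B9, H4 and C8 and at 87.7 and 106 CPM in WT, a log2 difference of 0.31 (edgeR, adjusted p = 0.281). *Trp53bp1* was not uniform over these clones. It was at 96.8 CPM in B9 and 109 CPM in C8, below the WT levels of 126 and 144 CPM, and at 143 CPM in H4, within them. The log2 difference of -0.21 had a 95% confidence interval from -0.66 to 0.23. *Brca2*, which acts between resection and strand exchange, varied among the *Cdk8* KO clones as well, from 69.8 CPM in H4 to 107 CPM in B9 around WT levels of 81.8 and 90.7 CPM. *Brca2* and *Trp53bp1* had the widest spread of the 38 among these clones (SD of log2 CPM 0.309 and 0.289), where the median gene of the set had 0.08 and the median of all genes 0.182.

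Over the set, 30 of the 38 were higher in *Cdk8* KO than in WT, with a median log2 difference of 0.09 beside 0.02 over all genes. Every clone lay above both WT replicates in 14 (36.8%), beside 16.1% of all genes, and below both in 2, *Fance* and *Palb2*, beside 14.5%. By role the medians were 0.09 for the FA core, 0.29 for the clamp, 0.06 for the BRCA genes, 0.14 for the strand exchange cofactors, 0.05 for resection and dissolution, 0.08 for the nucleases and 0.01 for break signalling and the 53BP1 axis.

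The knockouts were then compared with each other, with the WT libraries setting the difference between multiplexes. Each WT library is present in this fit as sequenced in both multiplexes. The DMSO and ATRi libraries of a clone also count in it as separate replicates. The degrees of freedom of the fit are therefore overstated and its intervals may be too narrow. Of 18349 genes 1 passed (0.00545%), *Ccnc* itself, and none of the 38 did, nor did any reach an unadjusted p under 0.05, which 523 of all genes did (DESeq2: 0 of the 38). The fall of *Trp53bp1* in *Ccnc* KO was therefore not shown to differ from its value in *Cdk8* KO: the log2 difference between the knockouts was -0.26, with a 95% confidence interval from -0.61 to 0.10. For *Rad50* that interval ran from -0.20 to 0.22, and for *Fanci* from -0.25 to 0.10.

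**Figure D3:**
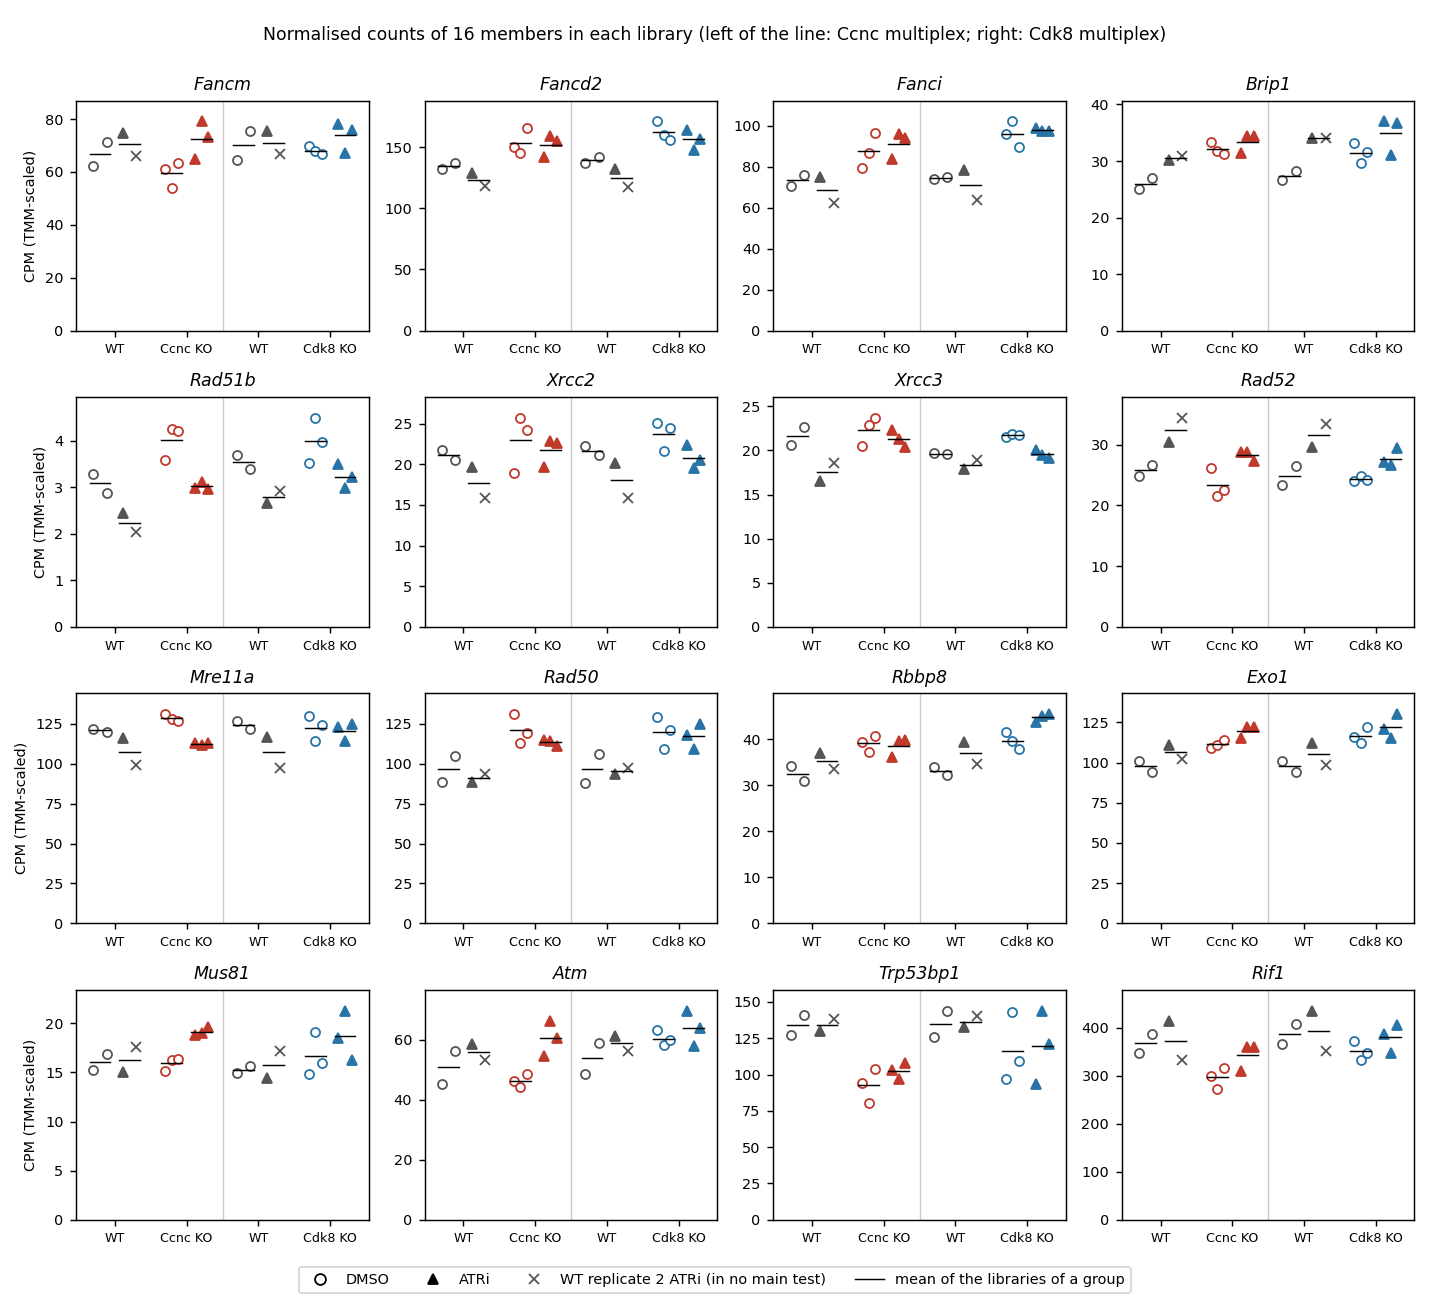
CPM of 16 of the genes in every library, under DMSO (circles) and ATRi (triangles), for WT and *Ccnc* KO in the *Ccnc* multiplex (left of each line) and WT and *Cdk8* KO in the *Cdk8* multiplex (right); lines are group means and crosses the WT replicate 2 ATRi library, left out of the main tests. *Trp53bp1* is low in the *Ccnc* KO clones, at 80.1 to 104 CPM under DMSO, and split among the *Cdk8* KO clones, and *Rad52* is higher under ATRi in every clone.

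The second question was whether 4 h of ATR inhibition changed these transcripts in the knockout clones. Within the *Ccnc* KO clones 21 of 18577 genes (0.113%) passed for ATRi against DMSO, and none of the 38 (DESeq2: 1). An unadjusted p under 0.05 was reached by 8 of the 38 (21.1%) beside 12.7% of all genes. Within the *Cdk8* KO clones 3 of 18721 genes (0.0160%) passed, none of the 38 (DESeq2: 0), and 2 of the 38 (5.26%) beside 6.24% of all genes had an unadjusted p under 0.05. The median log2 difference over the 38 was -0.01 in *Ccnc* KO, as it was over all genes tested. For the genes of smallest p below, overlap of DMSO and ATRi libraries is described only. The share of all genes without such overlap was not counted.

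The smallest p in the *Ccnc* KO clones was that of *Atm*, the kinase activated at breaks. *Atm* was at 46.4, 44.1 and 48.6 CPM in D1, G2 and H5 under DMSO and at 54.5, 66.4 and 60.7 CPM under ATRi, with every ATRi library above every DMSO library. The log2 difference was 0.38 ± 0.0922 SE (edgeR quasi-likelihood test, adjusted p = 0.152). With each clone compared with itself, 150 genes (0.807%) passed and *Atm* was the only one of the 38 (edgeR with clone as a block, log2 fold change 0.38, adjusted p = 0.0483). In WT replicate 1 the log2 difference of *Atm* was 0.37 in the *Ccnc* and 0.33 in the *Cdk8* multiplex. In WT replicate 2, whose ATRi library was left out of the main tests, it was -0.08 and -0.06. In the *Cdk8* KO clones *Atm* was at 63.2, 58.1 and 59.8 CPM under DMSO and 69.7, 58.0 and 63.8 CPM under ATRi, with overlap, and the block passed 1267 genes (6.77%) and none of the 38.

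*Mre11a*, the nuclease of the MRE11-RAD50-NBN complex, was at 131, 128 and 127 CPM in the *Ccnc* KO clones under DMSO and 113, 112 and 113 CPM under ATRi (log2 difference -0.19, edgeR, adjusted p = 0.215). The ATRi libraries were all below the DMSO libraries. In the *Cdk8* KO clones, at 130, 114 and 124 CPM against 123, 114 and 125 CPM, they overlapped. *Fancm*, the translocase that brings the FA core to DNA, was at 61.2, 53.9 and 63.5 CPM under DMSO and 64.8, 79.1 and 73.1 CPM under ATRi in the *Ccnc* KO clones (log2 difference 0.28, edgeR, adjusted p = 0.254). Clone G2 gave the widest step in both *Atm* and *Fancm*, with ATRi minus DMSO differences of 0.59 and 0.55 on the log2 scale.

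*Rad52*, whose product anneals complementary single strands, was higher under ATRi in each clone. It was at 26.1, 21.6 and 22.6 CPM under DMSO and 28.8, 28.7 and 27.3 CPM under ATRi in *Ccnc* KO clones D1, G2 and H5. It was at 24.0, 24.9 and 24.1 CPM under DMSO and 27.1, 26.6 and 29.4 CPM under ATRi in *Cdk8* KO clones B9, H4 and C8. In each knockout the ATRi libraries were all above the DMSO libraries, by log2 differences of 0.27 (edgeR, adjusted p = 0.257) and 0.19 (adjusted p = 0.774). The WT replicates gave 0.29 and 0.37 in the *Ccnc* multiplex and 0.34 in both replicates in the *Cdk8* multiplex. The ATRi library of WT replicate 2 was left out of the main tests.

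Beside *Rad52*, the genes with the smallest p in the *Cdk8* KO comparison were *Rbbp8*, *Xrcc3* and *Xrcc2*. *Rbbp8* was at 41.6, 39.6 and 37.8 CPM under DMSO and 43.8, 45.0 and 45.4 CPM under ATRi (log2 difference 0.17, edgeR, adjusted p = 0.736), without overlap, while in the *Ccnc* KO clones its difference was -0.03. *Xrcc3*, a strand exchange cofactor, was at 21.5, 21.9 and 21.7 CPM under DMSO and 20.1, 19.5 and 19.2 CPM under ATRi (log2 difference -0.15, adjusted p = 0.812 in the edgeR test), also without overlap. *Xrcc2*, another, was at 25.1, 21.6 and 24.4 CPM against 22.4, 19.5 and 20.5 CPM (log2 difference -0.19, edgeR, adjusted p = 0.818), and there DMSO and ATRi libraries overlapped. None of these passed the test.

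When the 6 knockout clones were tested together, each clone against itself, 1594 of 17630 genes (9.04%) and 6 of the 38 (15.8%) passed. This test was chosen after the values had been seen. *Rad52* rose by 0.24 ± 0.0502 SE (log2, edgeR with clone as a block, adjusted p = 0.0123), and *Mus81*, *Atm*, *Rif1* and *Fancm* rose by 0.22, 0.24, 0.17 and 0.21 (adjusted p = 0.023, 0.0341, 0.0362 and 0.0449 in the same edgeR test). *Rad51b* fell by 0.34 ± 0.094 SE (adjusted p = 0.0385, edgeR). The 6 calls depended on the clones entered. Without clone H5 of *Ccnc* KO none of the 38 and 554 of all genes passed. Without G2 *Rad52* alone of the 38 and 1067 of all genes did, and without D1 10 of the 38 and 2010 of all genes did. Leaving out B9, H4 or C8 of *Cdk8* KO left 2, 3 and 3, *Rad52* among them each time, and 626, 751 and 993 of all genes.

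*Mus81*, the structure-selective nuclease paired with EME1, was at 15.2, 16.3 and 16.4 CPM under DMSO and 18.8, 19.0 and 19.6 CPM under ATRi in the *Ccnc* KO clones. In the *Cdk8* KO clones it was at 14.8, 19.1 and 16 CPM and 18.5, 21.3 and 16.3 CPM. Each clone was higher under ATRi, clone C8 by 0.03 on the log2 scale. The WT replicates gave log2 differences of -0.03 and 0.06 in the *Ccnc* multiplex and -0.05 and 0.13 in the *Cdk8* multiplex. *Rad51b* was at 3.59, 4.24 and 4.2 CPM under DMSO and 2.98, 3.11 and 2.96 CPM under ATRi in *Ccnc* KO, and at 3.52, 4.49 and 3.98 CPM against 3.49, 2.98 and 3.22 CPM in *Cdk8* KO. Every clone was lower, clone B9 by 0.01 on the log2 scale. The WT replicates differed by -0.43 and -0.49 in the *Ccnc* multiplex and by -0.465 and -0.225 in the *Cdk8* multiplex. Sequencing the WT replicate 2 ATRi library again moved *Rad51b* by 0.52 on the log2 scale.

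Counted by direction alone, 5 of the 38 (13.2%) were higher under ATRi in all 6 knockout clones, *Brca2*, *Rad52*, *Exo1*, *Mus81* and *Rif1*, beside 7.05% of all genes. Of these, *Brca2*, *Rad52* and *Exo1* were also higher in both WT replicates (7.89%, beside 3.52% of all genes). Counts over both WT replicates include the WT replicate 2 ATRi library, which was left out of the main tests. *Fancg*, *Ube2t*, *Rad51b* and *Eme1* were lower in all 6 clones (10.5%, beside 9.26%), and *Ube2t* and *Rad51b* also in both WT replicates of the *Ccnc* multiplex (5.26%, beside 5.37%). The shares of lower genes lie close to the background.

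**Figure D4:**
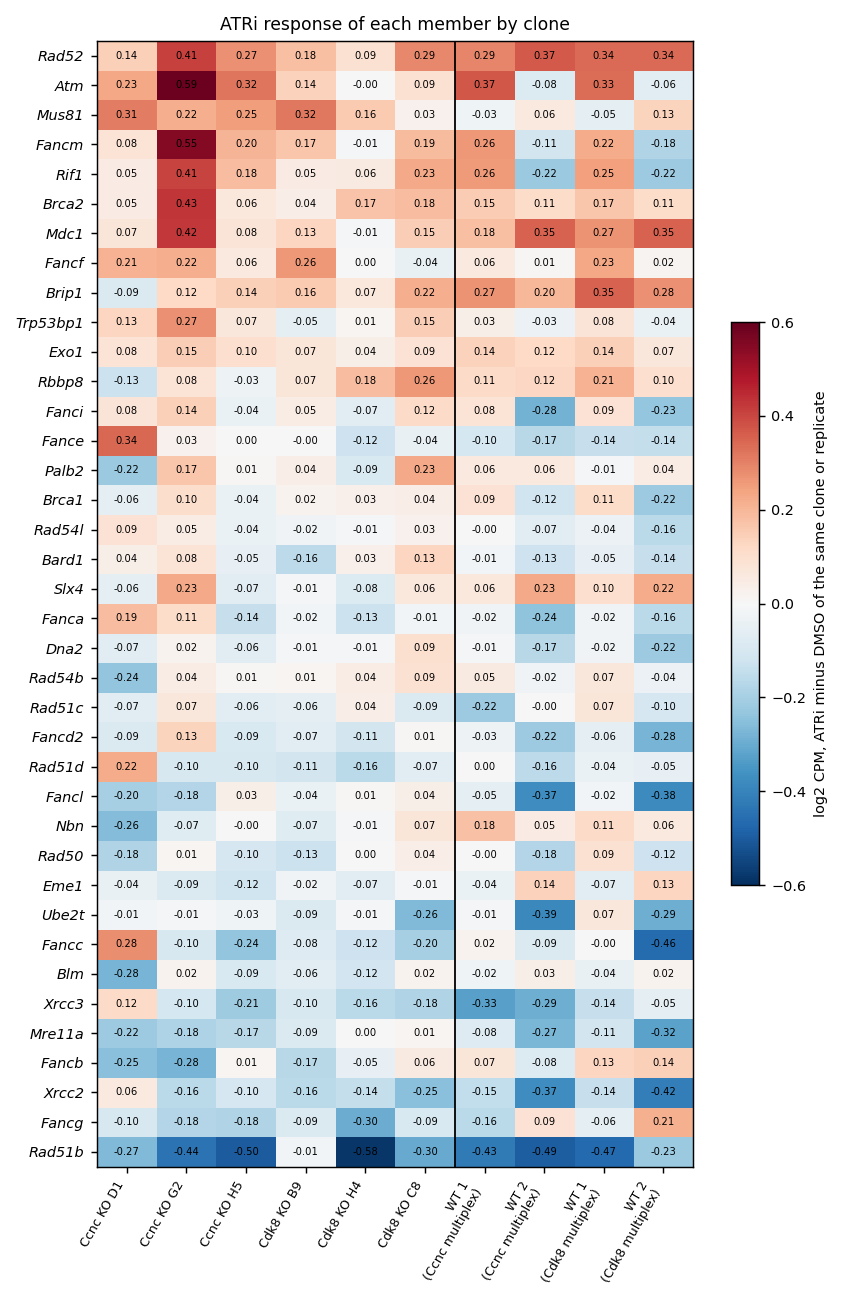
Log2 CPM under ATRi minus DMSO for each of the 38 genes in each knockout clone and each WT replicate, with WT shown in both multiplexes (red higher, blue lower), ordered by the mean over the 6 knockout clones. *Rad52* at the top and *Rad51b* at the bottom keep their direction in every column, while most genes change sign between clones.

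Whether the ATRi response differed between knockout and WT was tested as an interaction. The WT side held 1 ATRi library, that of replicate 1, and its spread was taken from the other groups. No gene passed for *Ccnc* KO (0.00% of 18577) or for *Cdk8* KO (0.00% of 18721) in the edgeR test without a clone block or with DESeq2, and 395 and 255 genes had an unadjusted p under 0.05 in the edgeR test. With the clone as a block 0 and 4 genes passed, none of the 38 in either. Without the block, 1 of the 38 had a 95% confidence interval that excluded 0 for *Ccnc* KO, and none had for *Cdk8* KO. That gene was *Nbn*, which tethers ATM to the MRE11 complex (log2 difference of responses -0.31, interval -0.59 to -0.04). With the block, 0 of the 38 had an unadjusted p under 0.05 for *Ccnc* KO and 2 for *Cdk8* KO, so the *Nbn* value did not hold. Intervals were wide: for *Rad52* they ran from -0.32 to 0.35 in *Ccnc* KO and from -0.38 to 0.25 in *Cdk8* KO.

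The WT replicate 2 ATRi library, left out of the main tests, stood apart in the repair genes too. It was below every other library of both multiplexes in 12 of the 38 (31.6%), beside 15.8% of all genes, and above every other in 4 (10.5%), beside 15.6%. *Fancl* was at 49.8 CPM in it and at 69.8 CPM in WT replicate 1 under ATRi, and *Fanci* at 62.4 and 74.8 CPM. Sequencing the same WT library again moved the median gene of the set by 0.04 to 0.06 on the log2 scale, whereas the WT replicates differed by 0.09 to 0.10 under DMSO and 0.15 to 0.18 under ATRi.

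Other genes of the pathways, from a list of 60 that excludes the 38, served as a comparison, and 59 of them were tested. In *Ccnc* KO 1 gene of the 59 rose and 2 fell, beside 1026 of 18577 genes (5.52%) called in all. *Psmc3ip*, a cofactor of strand invasion, rose by 0.38 (edgeR, adjusted p = 0.0166), *H2afx*, the histone marked at breaks, fell by 0.39 (adjusted p = 0.00644, edgeR), and *Hsf2bp*, a BRCA2-binding protein, fell by 0.55 (edgeR, adjusted p = 0.00407), all on the log2 scale. None passed in *Cdk8* KO, beside 0.112% of all genes, and 6 had an unadjusted p under 0.05, beside 13.0% of all genes (edgeR). Under ATRi in the 6 clones together, *H2afx* rose by 0.25, *Wdr48*, a cofactor of the enzyme that removes ubiquitin from the clamp, rose by 0.13, and *Babam2*, of a BRCA1-associated complex, fell by 0.22 (edgeR with clone as a block, adjusted p = 0.00127, 0.0483 and 0.0204). In that test 9.04% of all genes passed. The medians of the 59 under DMSO were 0.03 in *Ccnc* KO and 0.01 in *Cdk8* KO.

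Replication genes of the G1/S transition, a list of 40, lay above WT as well. In *Ccnc* KO 38 of the 40 were above WT with 9 called and a median of 0.17, and in *Cdk8* KO 39 were above WT with none called and a median of 0.13. Over all genes tested 5.52% were called in *Ccnc* KO and 0.112% in *Cdk8* KO. The 35 G2/M genes had medians of -0.011 and -0.004, and of the 13 genes of non-homologous end joining none was called in either knockout. Of the 12 primitive endoderm markers 11 were above WT in each knockout, with 7 called and a median of 1.04 in *Ccnc* KO and 2 called and a median of 1.52 in *Cdk8* KO. In *Ccnc* KO 4 of the 12 pluripotency markers fell and 2 of the 7 trophectoderm markers rose. The part of any of these in the values of the repair genes was not tested.

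The 5 genes with an E2F-type motif in the windows shown were called in neither knockout. In *Ccnc* KO the log2 differences of *Bard1*, *Fancg*, *Brca2*, *Rad51c* and *Mdc1* were 0.19, 0.13, -0.11, 0.14 and 0.10, and in *Cdk8* KO 0.14, 0.14, 0.01, 0.02 and 0.17. Transcripts of the set were also longer and lower in GC than those of all genes tested, with a median exon length of 5830 against 3465 bases and a median GC content of 46.2% against 50%. With a correction for both, 7 of the 38 and 1116 of 18577 genes passed in *Ccnc* KO, and none of the 38 and 31 of 18721 genes in *Cdk8* KO (edgeR; 7 of the 38 had an unadjusted p under 0.05 there).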

How the data were processed

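Per the labels and the study's methods, the authors trimmed single-end reads of stranded poly(A) libraries with Trimmomatic 0.38, aligned them to GRCm38.p6 with HISAT2 2.1.0 and counted reads per gene with featureCounts 2.0.1 (duplicate reads ignored, reverse strand). The deposited counts are raw and per lane. The authors also deposited log2 values (rlog transformation of DESeq2), which were not used. Reads dropped as duplicates cannot be restored from counts, which can compress the levels of short, highly expressed genes.

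The lanes of each library were summed, giving 20 libraries from 40 lanes, with 0 sample columns unused. Each multiplex was tested with edgeR 4.0.16 in R 4.3.3 (TMM scaling, filterByExpr, quasi-likelihood test, Benjamini-Hochberg over all genes tested), with 1 coefficient per genotype and treatment. A call was an adjusted p under 0.05. The ATRi library of WT replicate 2 was kept out of all but 1 alternative (all WT libraries), following the methods of the study. Alternatives used DESeq2 1.42.0 and limma 3.58.1. CPM are TMM-scaled, with a prior count of 2 on the log2 scale. P-values of the main tests within a multiplex measure the spread between clones and between the WT replicates. That spread is pooled over DMSO and ATRi libraries, which are paired within a clone, so its degrees of freedom may be overstated. In the comparison of the knockouts with each other, the DMSO and ATRi libraries of a clone count as separate replicates. The same holds for the alternative beside treatment without a block. The scripts were tested on simulated data.

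Members and lists were chosen with earlier results of these data known. Of 63 other HR and FA genes listed, 3 were not found. Values in every library are given for members called in a test, or for the 4 with the smallest p where fewer than 4 were called. *Mus81* and *Rad51b* were added after their values had been seen, and the values of other members, shown for their role or spread, likewise. Outside the set, the targeted genes and the called genes of the other HR and FA list are named. A further gene of that list is not reported here.

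Samples of a clone are paired, since each clone was split between DMSO and ATRi. Their deviations from the group means correlated over genes with r = 0.176, 0.0204 and 0.184 in D1, G2 and H5 and 0.552, 0.625 and 0.176 in B9, H4 and C8.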

Additional observations from a re-analysis of the deposited data

Results flagged for a closer look

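In 16 of the 38 genes the WT replicate 2 ATRi library, left out of the main tests, stood beyond every other library of both multiplexes. It was below them in 12 (31.6%), beside 15.8% of all genes, and above them in 4 (10.5%), beside 15.6%. Differences are log2 CPM under ATRi minus DMSO in WT replicate 2, as sequenced in the *Ccnc* multiplex. Lower than every other library were *Fanca* (-0.24), *Fancl* (-0.37), *Ube2t* (-0.39) and the clamp genes *Fancd2* (-0.22) and *Fanci* (-0.28). Lower too were *Brca1* (-0.12) and its partner *Bard1* (-0.13), and the strand exchange cofactor genes *Rad51d* (-0.16) and *Xrcc2* (-0.37). Among the translocase and resection genes, *Rad54l* (-0.068), *Mre11a* (-0.27) and *Dna2* (-0.17) were lower. *Rad52* (0.37), *Eme1* (0.14), *Slx4* (0.23) and *Mdc1* (0.35) were above every other library. These differences come from 1 library and carry no test.

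*Fance*, which links the FA core to FANCD2, was singled out because its clones moved in opposite directions under ATRi. The *Ccnc* KO clones were higher (mean 0.13) and the *Cdk8* KO clones lower (mean -0.06), a difference of 0.18 on the log2 scale. The *Ccnc* KO mean came mostly from clone D1 at 0.345, beside 0.027 in G2 and 0.004 in H5. Clones H5 and B9 both lay within 0.01 of 0. The difference was not tested, and the share of all genes with such a split was not counted.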

How the results depend on the processing

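Counts below are of the 38 genes called (adjusted p under 0.05). For *Ccnc* KO against WT the count of 2 became 4 with genes of at least 1 count kept and 4 with DESeq2, 1 with all WT libraries, 7 with GC and length correction, 1 with DMSO libraries alone, 7 beside treatment, and 6 beside treatment with the clone as a random replicate block. Calls over all genes moved too, from 1026 to 1814, 1306, 452, 1116, 635, 2284 and 1885 in the same order. Beside treatment without the block, the DMSO and ATRi libraries of a clone count as separate replicates, here and for *Cdk8* KO. In the main test, leaving out 1 replicate gave 0 to 2, with 0 without WT replicate 2 and 1 without WT replicate 1 or clone G2. For *Cdk8* KO against WT the count of 0 became 1 with genes of at least 1 count kept, 1 with DESeq2, 3 beside treatment and 1 with the random block, with 243, 489, 806 and 237 genes called in all against 21.

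For ATRi within *Ccnc* KO the count of 0 became 2 with genes of at least 1 count kept, 1 with DESeq2, 1 with the clone as a replicate block and 1 with the block and GC and length correction. Calls over all genes went from 21 to 470, 211, 150 and 317 in the same order. Within *Cdk8* KO the count of 0 became 3 with the block and that correction, where calls over all genes went from 3 to 1786 of 18721. The 6 clones together, a setting chosen after seeing the data, gave 6 with the block, 8 with the correction added, and 0 to 10 with 1 clone left out. The same fits called 1594, 2515 and 554 to 2010 genes in all.

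The median log2 difference of the 38 in *Ccnc* KO went from 0.10 to 0.055 beside treatment and 0.056 with the random block. For ATRi within *Ccnc* KO it was -0.031 to 0.022 with 1 replicate left out, and -0.013 to 0.035 with 1 of the 6 clones left out. For the interaction it went to 0.053 (*Ccnc* KO) and 0.019 (*Cdk8* KO) with all WT libraries, and for *Ccnc* KO ran from -0.056 without clone G2 to 0.006 with 1 replicate left out. The interaction could not be estimated without WT replicate 1, which leaves no WT library under ATRi. With genes of at least 1 count kept, 20 genes and none of the 38 passed for the *Ccnc* KO interaction. The paired fit changed no other call among the 38. Direction was checked for the 16 pairs of gene and comparison chosen by call or smallest p, and none changed in any alternative. Other named genes could change direction. In *Ccnc* KO against WT, *Slx4* lay at -0.05 in the main test. With GC and length correction it lay above WT, where the lowest of the nuclease genes was at 0.025. The causes of these changes were not tested.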
